A study of Danio rerio with 8 samples.

Results

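Neurotransmitter receptors are the proteins with which a neuron reads what its neighbours release. Channel receptors open an ion pore when they bind glutamate, GABA, glycine, acetylcholine or ATP, and G-protein coupled receptors answer more slowly through second messengers. In the retina, photoreceptors and bipolar cells release glutamate, horizontal and amacrine cells release GABA or glycine, and subsets of amacrine cells release acetylcholine or dopamine. Retinal ganglion cells (RGCs), whose axons form the optic nerve, receive these inputs through receptors on their dendrites.

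The genes described here were chosen by symbol. A probe was taken when its RefSeq accession led to a symbol that begins with one of the usual stems of these families, such as gria for AMPA receptor subunits, chrn for nicotinic subunits or drd for dopamine receptors. The stems matched 84 symbols reported here. Of these, 6 were HtrA serine proteases (htra1a, htra1b, htra2-10, htra2-3, htra2-6 and htra3a), which share the letters htr with the serotonin receptors and are not receptors, and they were put in no class. The remaining 78 receptor genes, of 13143 genes with a symbol, were measured by 122 probes, and each gene is given by the probe whose signal averaged highest over the 8 arrays (its brightest) unless another probe is named. Signals of different probes are not comparable as levels, and naming the brightest probe of a class says nothing of how much of its gene was present. They fell into 12 classes: 8 AMPA, 3 NMDA and 2 metabotropic glutamate receptor genes, 3 genes of GABA-A alpha or beta subunits and 3 of rho subunits, 5 glycine, 13 nicotinic and 4 muscarinic acetylcholine receptor genes, 9 dopamine, 8 serotonin and 11 adrenergic receptor genes, and 9 genes of ATP-gated P2X channels. No kainate receptor gene or GABA-A gamma subunit gene was among the matched probes.

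Total RNA came from right retinae of wild type adult zebrafish, 9 to 12 months old and of either sex, as the methods of the study give them. The 4 control pools held unoperated retinae and the 4 crush pools held retinae taken 3 days after the right optic nerve had been crushed behind the eye, which severs the RGC axons. Each pool held 4 fish, and each was hybridised to its own one-colour array, so that n = 4 pools in each group. The control arrays shared 1 slide and the crush arrays a second, and slide and group cannot be told apart. A pool is whole retina, in which fewer cells of a type and less RNA per cell cannot be told apart. Values are log2 fluorescence signals after background correction and quantile normalisation, and a fold change is crush minus control on that scale. It is called when it is at least 1.5-fold and has an adjusted p of at most 0.05 in limma over all probes.

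Between 72.5% and 77.8% of probes were well above background on 7 of the arrays, with 6 to 21 outlier spots on each. The array of control pool 2 stood apart, with 84% of probes well above background and 382 outlier spots. Without that pool the median log2 fold change of the receptor genes given below was -0.30, and keeping the outlier spots left it at -0.25. Arrays correlated by 0.979 to 0.991 within a group. Markers of photoreceptors, bipolar, amacrine and horizontal cells, Muller glia and RGCs were present, and none of those measured was dim on all arrays. Of 9 measured RGC markers, all were lower in mean after crush and 6 were called lower, with a median log2 fold change of -0.89. Their summed signal was 77165 to 105791 in the control pools and 40621 to 49443 in the crush pools. Of 10 amacrine markers, all were lower in mean and none was called, with a median of -0.28 and sums of 163736 to 214242 and of 124357 to 172937. The part of either cell type in the receptor values below was not tested.

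Most receptor genes had a slightly lower signal after crush. Few differed enough to be called, which was so for all genes as well. Of the 78 genes, 65 (83.3%) were lower in mean in the crush pools and 13 were higher, while 48.6% of all genes with a symbol were lower. The median log2 fold change of the receptor genes was -0.24, beside 0.01 over all genes. With the settings of the report a single receptor gene, p2rx1, was called lower and none was called higher. Of all genes 0.883% were called lower and 2.47% higher. The log2 values of the authors gave 3 receptor genes called lower, p2rx1, chrna6 and drd2a, beside 113 of all 13143 genes. The paper names these 3 among its under-expressed genes. At an unadjusted p of 0.05, 23 receptor genes were lower and 1 was higher in the limma fit of the report, where 9.06% of all genes were lower and 12.9% higher. In 11 receptor genes (14.1%) every crush pool lay below every control pool, which was so for 6.53% of all genes. In none did every crush pool lie above every control pool, which was so for 10.3% of all genes. Of the 78 genes, 59 were well above background on all arrays of at least 1 group and 19 were not.

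**Figure D1:**
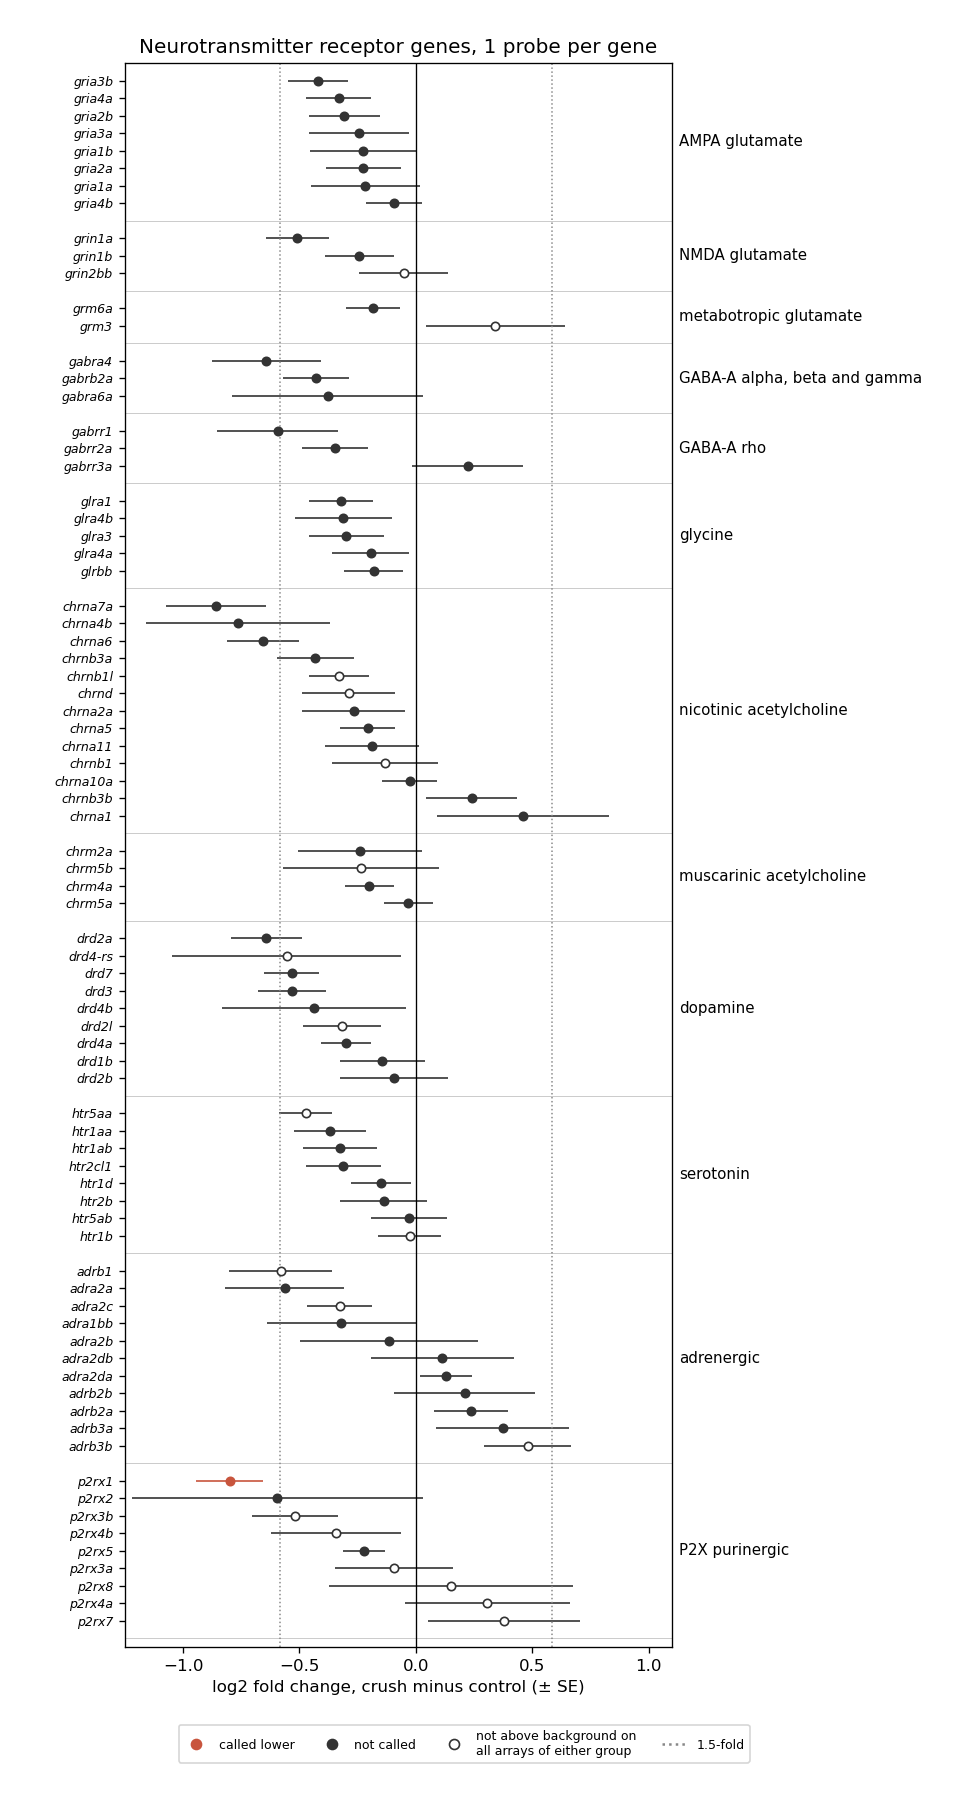
Log2 fold change (crush minus control, horizontal axis) of the 78 receptor genes, 1 row per gene, grouped by class, with bars of 1 standard error from limma (n = 4 pools per group). Filled points are genes well above background on all arrays of a group, open points are dimmer genes, the red point is the gene called lower, and dotted lines mark 1.5-fold; 65 of 78 points lie left of 0.

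The 4 crush pools were not equally low. Over the 78 receptor genes, the median distance from the control mean of each gene was -0.12, -0.24, -0.23 and -0.38 in crush pools 1 to 4, and -0.05, -0.07, 0.06 and 0.06 in control pools 1 to 4. Crush pool 4 held the lowest signal of all 8 pools for 28 of the 78 genes, while it was lowest for 15.1% of all genes with a symbol. Markers of some cell types in crush pool 4 stood apart too, with median distances of -0.56 for amacrine cells, -0.43 for photoreceptors and 1.05 for myeloid cells. In the other crush pools these ranged from -0.22 to -0.15, from -0.22 to -0.13 and from 0.13 to 0.37. The myeloid median was 0.39 in control pool 1, and of the 5 myeloid markers measured csf1ra was lower in mean after crush. Markers of RGCs (-1.02, beside -0.96 in crush pool 3) and horizontal cells (-0.088, beside -0.098 in crush pool 1) did not set crush pool 4 clearly apart. The part of these cell types in the receptor values was not tested. Without crush pool 4, 61 of the 78 genes were still lower in mean and the median was -0.20.

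The channels for glutamate come first. AMPA receptors, built from the gria subunits, carry fast excitation, and every one of their 8 genes was lower in mean after crush, with a median log2 fold change of -0.24 and a range of -0.42 to -0.09. None was called. The gene gria3b, for an AMPA subunit, was the furthest from 0, with signals of 6.53, 6.47, 6.79 and 6.92 in the control pools and of 6.37, 6.35, 6.17 and 6.15 in the crush pools. Its groups did not overlap, and the difference of -0.42 ± 0.130 (SE) had an adjusted p of 0.127 in limma. The brightest probe of the class, that of gria2b, gave 11.92, 12.15, 12.18 and 12.09 in the control pools and 12.02, 11.79, 11.93 and 11.37 in the crush pools. Its groups overlapped, since crush pool 1 lay above the lowest control pool, and its change was -0.31 ± 0.153 (adjusted p = 0.312, limma). The subunit of gria2 is the one that keeps calcium out of most AMPA channels in mammals.

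All 3 NMDA receptor genes were lower in mean, with a median of -0.24, and none was called. These receptors need both glutamate and a co-agonist to open, and the product of grin1 is the subunit that every NMDA receptor contains. The zebrafish copy grin1a had signals of 13.88, 14.12, 14.21 and 14.35 in the control pools and of 13.88, 13.57, 13.53 and 13.54 in the crush pools. Crush pools 2 to 4 lay below all control pools, and crush pool 1 met the lowest control pool. The change was -0.51 ± 0.136 (adjusted p = 0.0857, limma). The other copy, grin1b, was read by 6 probes, all of them lower in mean, between -0.41 and -0.24, and none was called. The third gene, grin2bb, for a subunit that binds glutamate, was above background on 3 arrays of each group and its groups overlapped.

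Metabotropic glutamate receptors are G-protein coupled. The gene grm6a stands for the type through which ON bipolar cells of mammals sense photoreceptor glutamate, and its signals were 7.54, 7.51, 7.68 and 7.87 in the control pools and 7.59, 7.34, 7.54 and 7.39 in the crush pools. The groups overlapped, with a change of -0.18 ± 0.118 (adjusted p = 0.432, limma). Among 8 measured bipolar markers, 4 were lower in mean and 4 higher, and none was called. The remaining gene, grm3, was above background on 1 array of each group.

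The genes of inhibitory channels were lower in mean but for 1. GABA-A receptors are chloride channels built from several subunits, most often of alpha, beta and gamma kinds. All 3 genes described for alpha and beta subunits were lower in mean, with a class median of -0.43. In 2 of the 3 every crush pool lay below every control pool, which was so for 6.53% of all genes. The gene gabra4, for an alpha subunit, gave 11.86, 11.43, 11.69 and 11.17 in the control pools and 11.07, 11.16, 11.09 and 10.26 in the crush pools. Crush pool 4 stood well below the others, and crush pools 1 to 3 lay just under the lowest control pool. Its change was -0.64 ± 0.233 (adjusted p = 0.180, limma), and its 3 probes were all lower, between -0.64 and -0.47. The gene gabrb2a, for a beta subunit, fell between 12.12 and 12.41 in the control pools and between 11.51 and 12.06 in the crush pools. It differed by -0.43 ± 0.141 without overlap (adjusted p = 0.147, limma).

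The third of these genes, gabra6a, had the brightest probe of the class and varied most among pools. Its signals were 13.41, 12.77, 13.12 and 11.47 in the control pools and 12.26, 12.68, 12.62 and 11.68 in the crush pools. The pool numbered 4 was the lowest in both groups, and the change of -0.38 ± 0.412 was smaller than its error. Pool 4 was also the lowest of both groups for the dopamine receptor gene drd4b, with 9.79, 9.33, 9.57 and 8.09 in the control pools and 9.20, 8.95, 8.90 and 7.98 in the crush pools. It differed by -0.44 ± 0.395 (adjusted p = 0.585, limma). The labels do not say that pools of the same number share anything.

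Channels of rho subunits are GABA receptors known above all from retinal bipolar cells. The 3 rho genes did not move together, with gabrr1 and gabrr2a lower and gabrr3a higher in mean. The values of gabrr1 were 8.36, 7.09, 7.77 and 7.32 in the control pools and 7.15, 7.07, 7.17 and 6.77 in the crush pools. Control pool 1 was the highest and control pool 2 lay within the crush pools, so that the change of -0.59 ± 0.260 had an adjusted p of 0.255 in limma. The signals of gabrr3a were 8.69, 8.57, 9.42 and 9.04 in the control pools and 8.98, 9.52, 9.40 and 8.70 in the crush pools, which overlapped fully (0.22 ± 0.239).

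Glycine receptors are the other inhibitory chloride channels of the retina. All 5 of their genes were lower in mean, with a median of -0.30 and a range of -0.32 to -0.18, and none was called. The alpha subunit gene glra1 gave 9.01, 8.87, 9.16 and 9.15 in the control pools and 8.81, 8.75, 8.93 and 8.40 in the crush pools, and the groups overlapped by a single crush pool (-0.32 ± 0.138, adjusted p = 0.244, limma). The beta subunit gene glrbb, whose product ties the receptor to the synaptic scaffold, gave 12.78, 12.74, 12.65 and 12.78 in the control pools and 12.57, 12.64, 12.76 and 12.25 in the crush pools. Crush pool 3 lay among the controls, and the change was -0.18 ± 0.126.

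Nicotinic acetylcholine receptors are cation channels, and 11 of their 13 genes were lower in mean after crush, with a median of -0.27 (-0.14 at a normexp offset of 50). None was called with the brightest probe. In 2 (15.4%) every crush pool lay below every control pool, beside 6.53% of all genes, and so few genes fix such a share only loosely. The gene chrna6 encodes an alpha subunit that in the mouse is made by RGCs. Its signals were 7.65, 7.80, 8.19 and 8.06 in the control pools and 7.48, 7.30, 7.27 and 7.02 in the crush pools. Every crush pool was below every control pool, by a log2 fold change of -0.66 ± 0.153, and the adjusted p of 0.0581 in limma missed the threshold. The exact two-sided permutation test gave an unadjusted p = 0.0286, the smallest that 4 against 4 pools allow. Any gene whose groups do not overlap gets this value, so it adds nothing to the lack of overlap. The gene chrna6 was called in 5 of the alternative settings, among them a normexp offset of 16 and the log2 values of the authors. It was called in no fit with a pool left out.

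With the settings of the report, the largest mean difference of all 78 genes was that of chrna7a, for the alpha subunit that forms calcium-permeable channels on its own. It was -0.86 ± 0.216 (adjusted p = 0.0716, limma), from 6.03, 5.61, 5.86 and 5.65 in the control pools to 5.29, 4.43, 5.30 and 4.69 in the crush pools. The groups did not overlap, but the probe was above background on 4 control arrays and on 2 crush arrays, so that the crush mean rests partly on signals near background. Over the alternative settings the change of chrna7a ranged from -1.65 to -0.38 and that of p2rx1 from -0.87 to -0.63. The rank of chrna7a thus depended on the processing. The brightest nicotinic probe was that of chrnb3a, a partner subunit of chrna6 in the mouse, with 10.48, 11.02, 11.22 and 11.11 in the control pools and 10.64, 10.50, 10.56 and 10.40 in the crush pools. Control pool 1 lay among the crush pools, and the change was -0.43 ± 0.166 (adjusted p = 0.202, limma). Of the 9 measured RGC markers, 6 were called in the same arrays, from isl2b at -2.57 to pou4f3 at -0.88. Those not called were isl2a (-0.25), eomesa (-0.28) and sncga (-0.28).

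Subunits of the muscle-type nicotinic receptor, which sits at the neuromuscular junction, were also on the array. The gene chrna1 had the highest mean change of the nicotinic class, 0.46 ± 0.368, from 6.28, 5.46, 5.80 and 6.10 in the control pools to 6.03, 5.67, 6.29 and 7.48 in the crush pools. That mean rested on crush pool 4, and the other crush pools lay within or next to the control range. The genes chrnb1, chrnb1l and chrnd were dim, with chrnb1 above background on no array and chrnb1l and chrnd on no crush array. On the control side, chrnb1l was above background on 1 array and chrnd on 2. For chrnb1l and chrnd each crush signal was raised, where lower, to the dimmest signal marked as well above background on its array. The crush mean was then 1.05-fold and 1.15-fold below the mean of all 4 control arrays. These values take no account of the spread among pools, and the groups of both genes overlapped. Of 11 skeletal muscle markers, 9 were lower in mean and none was called, and their summed signal was 22178 to 28667 in the control pools and 25615 to 30409 in the crush pools. Control pool 3 stood apart in the mean over these markers, 0.79 above their control means, beside -0.27 to -0.26 in the other control pools. In the crush pools this mean distance was -0.58 to -0.43. The median distance in control pool 3 was only 0.09, beside -0.20 to -0.11 in the other control pools and -0.63 to -0.26 in the crush pools. A few markers carried the mean, such as actc1b, at 8.82 in control pool 3 and 5.61 to 6.09 in the other control pools. The part of these markers in the values of chrna1 was not tested.

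Muscarinic receptors are the G-protein coupled receptors for acetylcholine. Their 4 genes were lower in mean, with log2 fold changes of -0.24 to -0.03, and the groups overlapped in each. The gene chrm2a, for the type that inhibits adenylyl cyclase and slows the heart, gave 8.69, 9.11, 8.86 and 9.80 in the control pools and 9.39, 8.66, 8.59 and 8.86 in the crush pools. Control pool 4 was the highest and crush pool 1 the next (-0.24 ± 0.265, adjusted p = 0.664, limma).

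Dopamine, released by a sparse set of amacrine cells, adapts the retina to bright light. All 9 dopamine receptor genes were lower in mean after crush, with a median of -0.44. It was -0.27 at a normexp offset of 50 and -0.68 with the processed signal of the scanner software. In 3 of the genes (33.3%), drd2a, drd4a and drd7, every crush pool lay below every control pool, beside 6.53% of all genes. The gene drd2a belongs to the inhibitory, D2-like kind. Its brightest probe gave 7.91, 8.53, 8.30 and 8.37 in the control pools and 7.67, 7.47, 7.57 and 7.83 in the crush pools. The change of -0.64 ± 0.153 had an adjusted p of 0.0612 in limma and was not called. The gene was called in 5 of the alternative settings, and with a pool left out only without control pool 1. Its second probe gave 7.58, 8.24, 8.02 and 8.06 in the control pools and 7.47, 7.01, 7.23 and 7.09 in the crush pools, and was called lower (-0.77 ± 0.166, adjusted p = 0.0445, limma). This was the only receptor gene whose probes fell on different sides of the thresholds, and both probes had every crush pool below every control pool.

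The gene drd7 had the tightest control pools of the dopamine class, with 5.53, 5.64, 5.60 and 5.56 in the control pools and 5.01, 4.80, 5.13 and 5.26 in the crush pools. Its adjusted p of 0.0493 in limma met the threshold, but the change of -0.53 ± 0.118 was under 1.5-fold, and 2 of the 4 crush arrays were above background. The brightest dopamine probe, that of drd4a, was lower by a small and even amount, with 12.30, 12.41, 12.24 and 12.55 in the control pools and 12.05, 12.06, 12.21 and 11.98 in the crush pools (-0.30 ± 0.108, adjusted p = 0.179, limma). In the mouse the D4 receptor is found in photoreceptors, and of the 9 measured photoreceptor markers 8 were lower in mean and none was called (median -0.17). The D2-like gene drd3 gave 6.11, 5.68, 6.01 and 6.17 in the control pools and 5.69, 5.22, 5.51 and 5.43 in the crush pools, where crush pool 1 reached the lowest control pool (-0.53 ± 0.147, adjusted p = 0.0932, limma). The gene drd4-rs was above background on 1 control array, where it read 6.85, and on no crush array. The other control arrays read 4.80, 4.32 and 4.80, within the range of the crush pools, and the groups overlapped. With crush signals raised as for chrnd, its crush mean was 1.39-fold below the control mean, a value that rests on that 1 array. This value takes no account of the spread among pools. With each pool left out the change of drd4-rs lay between -0.85 and -0.0038. Tyrosine hydroxylase (th), the enzyme that makes dopamine, had a log2 fold change of -0.54 without overlap, with an adjusted p of 0.105 in limma.

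Serotonin receptors, apart from a channel family that was not among the matched probes, are G-protein coupled. All 8 genes were lower in mean, with a median of -0.23 (-0.14 at a normexp offset of 50). The brightest probe, that of htr2cl1, gave 10.59, 10.04, 10.19 and 10.25 in the control pools and 10.30, 9.82, 9.94 and 9.78 in the crush pools, with an overlap through crush pool 1 (-0.31 ± 0.161, adjusted p = 0.332, limma). The gene htr1aa, for an inhibitory receptor, gave 7.46, 7.66, 7.63 and 7.75 in the control pools and 7.32, 7.25, 7.58 and 6.88 in the crush pools (-0.37 ± 0.155, adjusted p = 0.236, limma). Crush pool 3 alone reached the control range. The brighter of the 2 probes of htr5aa was lower in every crush pool, but it was above background on 1 control array and on no crush array. With crush signals raised as for chrnd, its crush mean was 1.16-fold below the control mean, which takes no account of the spread among pools. The limma fit of this probe had an adjusted p of 0.0613. The other probe of htr5aa was not lower, with a log2 fold change of 0.056.

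Adrenergic receptors answer to noradrenaline and adrenaline, and theirs was the only class with more genes higher than lower in mean. Of 11 genes, 5 were lower and 6 higher in mean, with a median log2 fold change of 0.11, and in none did the groups part. Of the higher genes, adrb3b was above background on no array. The higher genes adra2da, adra2db and adrb3a were above background on 3 control and 4 crush arrays. Among the lower genes, adra2c and adrb1 were above background on 3 arrays of each group. Both probes of adra2da were higher, while the dimmer probe of adrb3a was at -0.96. The 5 probes of adrb2b lay between -0.68 and 0.21, and that at -0.68 was above background on 1 control array and no crush array. The alpha2 gene adra2a, for an inhibitory receptor, gave 7.49, 7.88, 7.95 and 7.24 in the control pools and 6.97, 7.65, 7.17 and 6.51 in the crush pools. Crush pool 2 lay within the control range, and the change of -0.56 ± 0.255 had an adjusted p of 0.270 in limma. At the second, dimmer probe of adra2a every crush pool lay below every control pool. Its change of -0.69 ± 0.193 was not called (adjusted p = 0.0959, limma). The sign of the class median depended on the processing, and it was -0.02 when each array was scaled to its median and -0.14 when the probes of a gene were averaged.

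P2X receptors are cation channels opened by ATP outside the cell. The only receptor gene called with the settings of the report was p2rx1, for the type best known from smooth muscle and platelets of mammals. Its signals were 8.14, 7.88, 7.996 and 7.78 in the control pools and 7.37, 7.24, 7.17 and 6.83 in the crush pools. All crush pools lay below all control pools, with a gap larger than the range within the control pools. The change was -0.80 ± 0.142 (95% interval -1.12 to -0.48), or 1.74-fold lower, with an adjusted p of 0.0238 in limma. The exact two-sided permutation test gave p = 0.0286, as for any gene whose groups do not overlap. The gene has 1 probe on the array. Leaving out control pool 1, 2 or 3 or crush pool 2 or 3 took the adjusted p above the threshold, to at most 0.080, while the change stayed between -0.87 and -0.69.

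The other bright P2X genes were p2rx5 and p2rx2. The brightest probe of p2rx5 gave 13.19, 13.13, 13.25 and 13.21 in the control pools and 13.07, 12.93, 12.92 and 12.97 in the crush pools. The pools were so close that a small change of -0.22 ± 0.0901 parted the groups, and its adjusted p was 0.218 in limma. Its other 2 probes were dim and were not lower. The gene p2rx2, for a slowly desensitising channel, spread more among crush pools than any other receptor gene, with 7.52, 7.91, 7.89 and 8.40 in the control pools and 7.49, 5.66, 7.05 and 9.16 in the crush pools. Its mean change of -0.59 ± 0.625 was smaller than its error, with the lowest and the highest of the 8 pools both in the crush group. Of the 9 P2X genes, 6 were lower in mean and 6 were not above background on all arrays of either group.

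**Figure D2:**
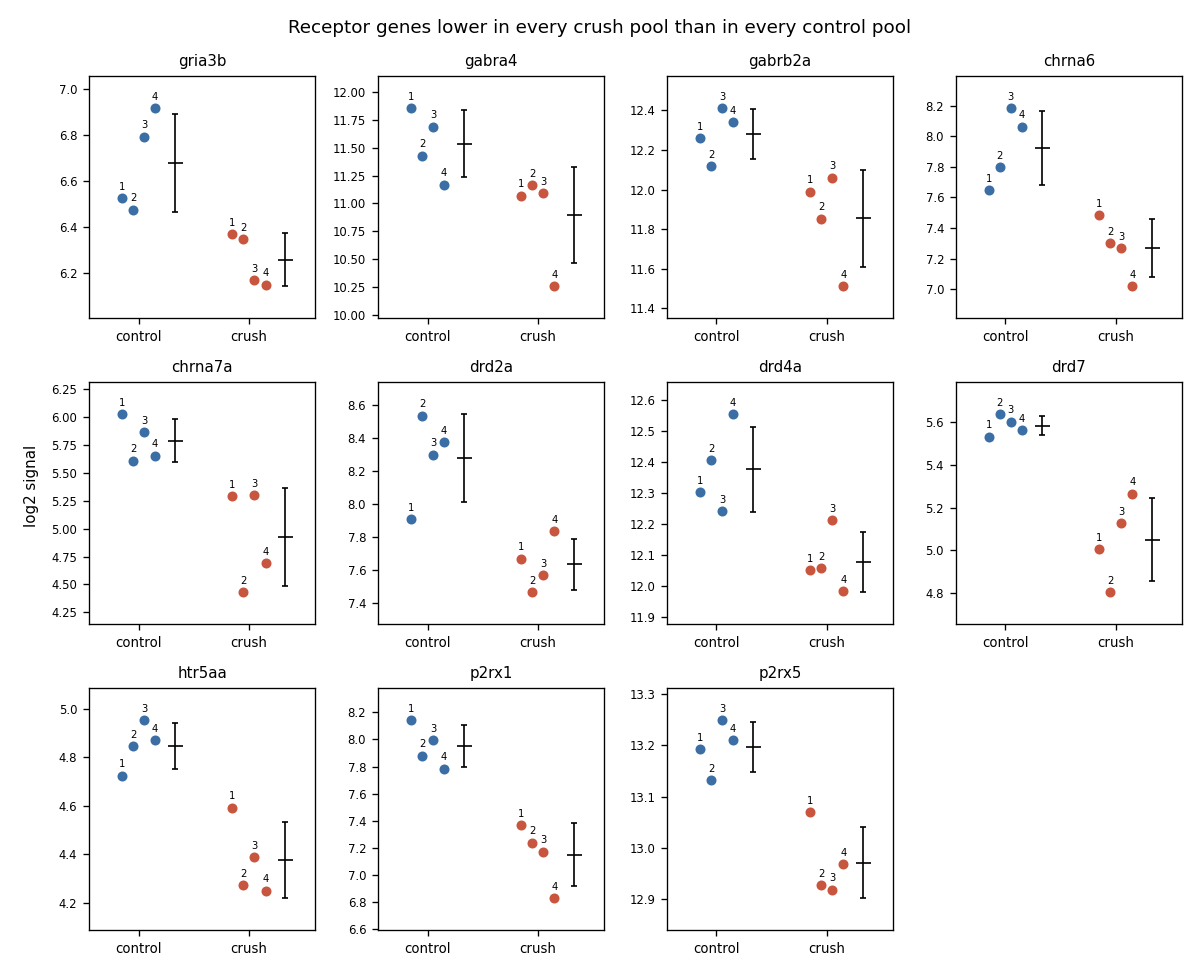
Log2 signal (vertical axis, its range set for each gene) in 4 control pools (blue) and 4 crush pools (red) for the 11 receptor genes whose groups do not overlap; digits are pool numbers, and black bars give the mean and SD. In p2rx1 the control pools sit between 7.78 and 8.14 and the crush pools between 6.83 and 7.37.

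Set side by side, the class medians of the crush pools parted from those of the control pools in some classes and overlapped in others. The class median of each pool, taken as the distance of each gene from its control mean, was -0.31, -0.46, -0.36 and -0.39 in crush pools 1 to 4 for dopamine receptor genes, below all control pools (-0.29 to 0.04). Nicotinic and serotonin genes parted in the same way, from -0.17 down to -0.45 and from -0.16 down to -0.43 in the crush pools. The lowest control pools of these classes were at -0.15 and -0.09. For the 3 GABA-A alpha and beta genes the class median was -0.43, -0.37, -0.22 and -1.01 in crush pools 1 to 4 and -0.37 to 0.32 in the control pools, and crush pool 3 lay within the control range. For AMPA, NMDA, metabotropic glutamate, rho, glycine, muscarinic, adrenergic and P2X genes the class medians of control and crush pools overlapped too. With class means in place of medians, nicotinic and serotonin genes again parted, and glycine genes did so as well. Dopamine genes parted only barely, with a mean of -0.233 in the lowest control pool and of -0.239 in the highest crush pool. The glycine means were -0.083 to 0.056 in the control pools and -0.573 to -0.091 in the crush pools. Over all genes with a symbol the median stayed between -0.02 and 0.04 in all 8 pools. Differences between classes were not tested. A class that parted need not have changed more than one that overlapped. The median log2 fold change was -0.23 for serotonin genes, which parted, and -0.24 for AMPA genes, which did not. Over all 44 genes for channel receptors the median log2 fold change was -0.28, and over the 34 for G-protein coupled receptors it was -0.22.

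**Figure D3:**
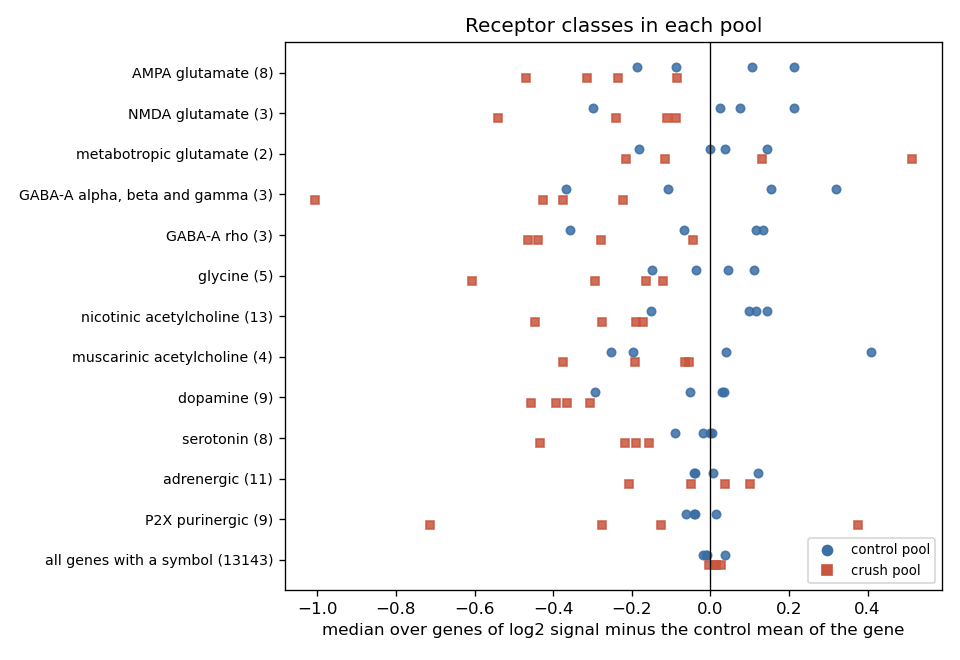
Median over the genes of each class of the log2 signal minus the control mean of the gene (horizontal axis), for 4 control pools (blue circles) and 4 crush pools (red squares); numbers of genes are in brackets. The crush pools lie below all control pools for nicotinic, dopamine and serotonin receptor genes, and all genes with a symbol stay near 0.

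More than 1 probe was available for 30 of the 78 genes. All probes were lower in mean for 23 of them, all were higher for 1 (adra2da), and the signs were mixed for 6 (adrb2b, adrb3a, chrna5, htr5aa, htr5ab and p2rx5). The 3 probes of gabrb2a lay between -0.43 and -0.38, and both probes of drd4a were at -0.30. For adrb3a the brighter probe changed by 0.37 and the dimmer by -0.96, and neither was called.

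**Figure D4:**
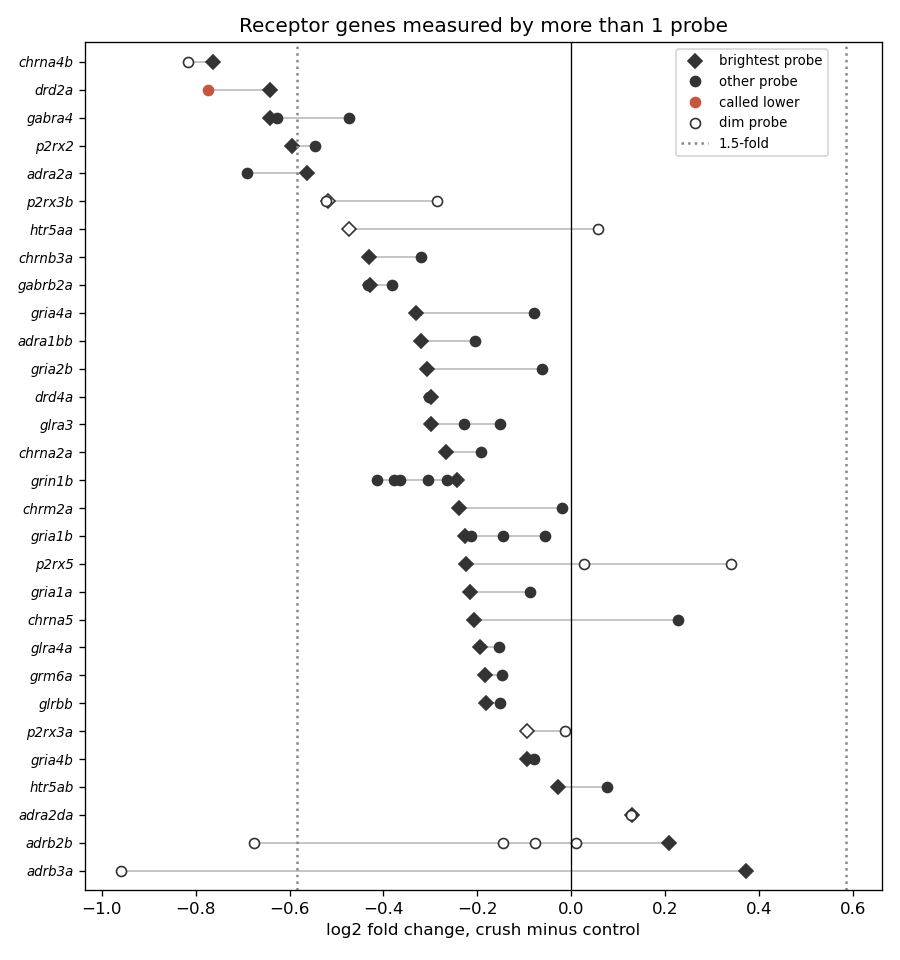
Log2 fold change (crush minus control, horizontal axis) of every probe of the 30 receptor genes with more than 1 probe; diamonds are the brightest probe of a gene, circles the others, open symbols are dim, and grey lines join the probes of a gene. The second probe of drd2a, at -0.77, is the only one called.

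Genes that act with the receptors were read from lists by name, and none of the 75 was called. Over all genes 0.883% were called lower and 2.47% higher, so that a list of this size would hold few calls in any case. Of 29 genes for anchoring and auxiliary proteins, 23 were lower in mean, with a median of -0.18. In 7 of them (24.1%) every crush pool lay below every control pool, beside 6.53% of all genes. The furthest of these was arhgef9b, for collybistin, which brings gephyrin to GABA-A and glycine receptors. It had means of 8.12 in control and 7.38 in crush pools (-0.74, adjusted p = 0.0547, limma), and it was called in 6 of the alternative settings. It was followed by dlg1b, for a scaffold protein (-0.55, adjusted p = 0.0901), cacng2b, for an auxiliary subunit of AMPA receptors (-0.49, adjusted p = 0.0637), the scaffold gene dlg2 (-0.45, adjusted p = 0.104) and the adhesion gene nlgn1 (-0.37, adjusted p = 0.107). All 5 were lower in every crush pool.

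Of 44 genes for transmitter synthesis and transport, 38 were lower in mean, with a median of -0.28, and in 12 (27.3%) every crush pool lay below every control pool, again beside 6.53% of all genes. The list takes in carriers of taurine, proline and neutral amino acids as well as those of transmitters. The largest mean changes were those of the glutamate transporter slc1a2a (-1.15, adjusted p = 0.157, limma), the neutral amino acid carrier slc1a4 (0.86, adjusted p = 0.133), the GABA transporter slc6a11a (-0.81, adjusted p = 0.0820), the noradrenaline-forming enzyme dbh (-0.71, adjusted p = 0.0828) and the glutamate transporter slc1a1 (-0.60, adjusted p = 0.106). None was called. Of receptor subunit genes outside the symbol stems, gabbr2 and gabrz were also lower in mean (-0.24 and -0.42), and neither was called.

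**Figure D5:**
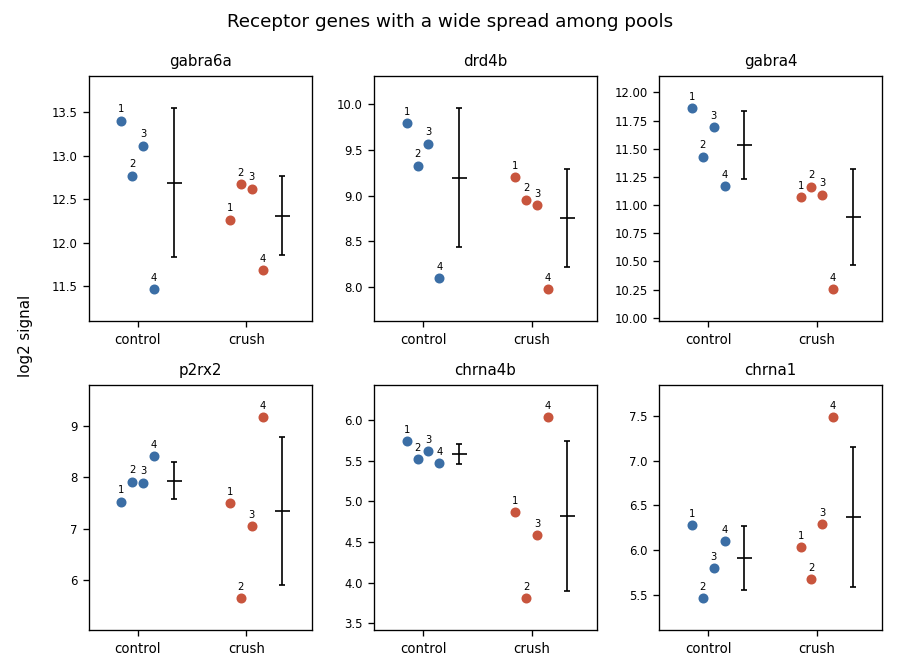
Log2 signal (vertical axis, its range set for each gene) in 4 control pools (blue) and 4 crush pools (red) for 6 receptor genes with a wide spread, chosen after their values were seen; digits are pool numbers, and black bars give the mean and SD. Pool 4 is lowest in both groups for gabra6a and drd4b, and highest in the crush group for p2rx2, chrna4b and chrna1.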

How the data were processed

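Signals came from 8 one-colour (Cy3) Agilent zebrafish arrays. The deposited scanner files hold the median fluorescence intensity of each spot and of its local background from the Feature Extraction software, a processed intensity and marks for outlier, saturated and well-above-background spots. The authors also deposited log2 values made with normexp correction and quantile normalisation, which an offset of 16 over all 45220 spots gave back to within 5e-09. Groups were taken from the sample labels.

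Here the median intensities were corrected with normexp (offset 0), control spots were dropped, outlier spots were set to missing, and arrays were quantile normalised, taken to log2 and averaged over spots of a probe. The 43601 probes measured on 2 or more arrays of both groups were fitted with lmFit and eBayes in limma 3.58.1 (R 4.3.3), as in the methods of the study, with Benjamini-Hochberg adjustment over all of them. Permutation tests enumerated the 70 relabellings of 4 against 4 pools. Tables were made in Python 3.11.15 with numpy 2.4.6, pandas 2.3.3 and scipy 1.17.1, and figures with matplotlib 3.10.9. The fit was tested on simulated data.

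Of 43603 probes, 25598 (58.7%) had a RefSeq accession that a table of RefSeq genes (assembly GRCz12tu) pairs with a symbol. No sequences or coordinates were used. Some receptor and related genes that the stems or lists match are not reported here and are left out of every count of members. The number of arrays limits the precision. The labels call the pools separate samples, and the methods of the study call them biological replicates.

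Members, classes and gene lists were chosen with earlier results of these data known. Genes were named by rule: those called, drd2a, p2rx1 and chrna6 from the paper, chrna7a as the array gene nearest in name to the chrna7 of the paper, which may not be the same gene, the brightest and the furthest changed bright gene of each class, genes whose probes differed in call, and up to 5 per related list. Other receptor genes with values (gria1a, gria1b, grin1b, gabrb2a, chrna4b, chrna1, chrnb3b, drd3, drd4b, drd4-rs, drd7, htr5aa, p2rx2, adrb3a, chrnb1l, chrnd, gria4a and gria4b) were chosen after their values were seen. Alternatives were other offsets, median scaling, the processed signal, the deposited values, leaving out dim probes, averaging probes, keeping outlier spots, a stricter fold threshold, a replicate block and leaving out each pool.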

Additional observations from a re-analysis of the deposited data

Results flagged for a closer look

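For 30 of the receptor genes named here, 60 groups of 4 pools were examined for a pool that stands apart by Dixon's criterion, and 2 held one. Chance gives about 1 in 20 such groups. In gabra4, crush pool 4 read 10.26 while the other crush pools read 11.07 to 11.16, so that 0.899 of the range of the group lay between it and its nearest neighbour. In grin1a, crush pool 1 read 13.88 while the others read 13.53 to 13.57, with 0.895 of the range in that gap.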

How the results depend on the processing

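Of 508 recomputed changes of the same 30 genes, 482 kept their direction and side of the thresholds, and 20 became calls. Another 5 lost one, all of p2rx1 with a pool left out, and 1 reversed. That was p2rx5, at 0.048 when its probes were averaged, since 2 of its 3 probes are dim. The 30 genes leave out gria1a, gria1b, grin1b, chrnb3b, adrb3a, chrnb1l, chrnd, gria4a and gria4b, though values of these are given. Calls of chrnb1l are thus not among the 20. Receptor genes called lower numbered 1 with the settings of the report, 3 with a normexp offset of 16 and with the deposited log2 values (chrna6, drd2a and p2rx1), 8 with median scaling, 6 with the processed signal scaled to its 75th percentile, 4 without dim probes, 2 with the mean of the probes of a gene, 2 when any probe of a gene counted, 0 at a log2 change of 1.5, and 0 to 2 with a pool left out; none was called higher in any setting. Calls over all genes with a symbol moved with the setting as well. Of 13143 genes, 116 were called lower with the settings of the report, 112 at an offset of 16 and 113 with the deposited values. Median scaling gave 276, the processed signal 226, the mean of the probes 81 and leaving out a pool 42 to 157. Without dim probes it was 151 of 11076. Without control pool 4, 413 of all genes were called higher. The receptor calls that median scaling or the processed signal added were among chrna6, chrna7a, chrnb1l, drd2a, drd3, drd7 and htr5aa. Leaving out control pool 1 gave 2 calls, chrnb3a and drd2a, and lost that of p2rx1. Related synaptic genes called lower numbered 0 in the report, 1 at an offset of 16 or 50, with the deposited values or without dim probes (arhgef9b each time), 4 with median scaling, 3 with the processed signal and 0 to 1 with a pool left out, and without control pool 4 there was 1 called higher, slc1a4, and 1 lower, dbh. The cause of these differences was not tested. With the replicate block, p2rx1 alone was called (adjusted p = 0.0487, limma). Deviations of same-numbered pools from their group means correlated by 0.00964, -0.118, 0.0171 and 0.181, and those of differently numbered pools by -0.188 to 0.18. Whether the numbers pair the pools cannot be told from these values.

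The median of the receptor genes stayed between -0.30 and -0.20 with each pool left out and between -0.26 and -0.18 with the other settings, except the processed signal, where it was -0.35 and that of all genes -0.04. Among class medians, that of dopamine was -0.27 at an offset of 50, -0.59 with median scaling and -0.68 with the processed signal. An offset of 50 also brought P2X from -0.22 to -0.072, muscarinic from -0.22 to -0.087, nicotinic from -0.27 to -0.14, serotonin from -0.23 to -0.14, adrenergic from 0.11 to 0.045 and metabotropic glutamate from 0.079 to -0.012. P2X was -0.41 with median scaling and -0.054 with the mean of probes, and muscarinic -0.14 at an offset of 16. P2X was -0.53 and serotonin -0.42 with the processed signal, and without dim probes P2X was -0.59 and metabotropic glutamate, then grm6a alone, -0.18. The adrenergic median, 0.11, was -0.025 with median scaling, -0.083 with the processed signal, -0.14 with the mean of probes and -0.077 to 0.15 with a pool left out.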

Other observations

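Zebrafish kept a second copy of many genes from a genome duplication of their ancestors, and 17 receptor genes had both copies, a and b, among the matched probes. Both copies were lower in mean in 12 pairs, both were higher in 3 and the signs differed in 2. In 12 pairs, not the same ones, both copies were well above background on all arrays of at least 1 group. Of the pairs whose signs differed, p2rx4a and p2rx4b were both dimmer than that, and so was adrb3b among the pairs with both copies higher. The copies gria1a and gria1b had changes of -0.22 and -0.23, and their difference from pool to pool varied little (SD 0.107). The copies chrnb3a and chrnb3b had changes of -0.43 and 0.24. Within each array the log2 ratio of the chrnb3a to the chrnb3b signal was 2.91, 3.13, 3.59 and 2.90 in the control pools and 2.26, 2.69, 2.30 and 2.59 in the crush pools, without overlap. The ratio of gria4a to gria4b also parted the groups, by a smaller change of -0.24, which was -0.12 when the probes of each gene were averaged. The difference in change between chrnb3a and chrnb3b stayed between -0.75 and -0.52 under every alternative and with each pool left out. The pairs named were picked with their values in view and were not tested.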
